A study of Mus musculus with 9 samples.

Results

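Cytochrome P450 enzymes of families 2, 3 and 4 were followed in liver RNA of 9 mice. The genes were every protein-coding row of the deposited gene table named Cyp, then 2, 3 or 4, a single letter and a number, which gave 73 of the 56748 rows. Of these, 55 belonged to the subfamilies 2a (4 genes), 2b (5), 2c (15), 2d (9), 2e (1), 3a (7), 4a (5) and 4f (9), which are those given in detail, and 18 to other subfamilies, of which 2j held 8. Genes whose name ends in a further letter, such as Cyp4a12a, were outside this rule. The rule reads names and no measured value.

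P450 enzymes are heme proteins of the endoplasmic reticulum that insert an oxygen atom into their substrates with electrons passed on by P450 oxidoreductase. Families 2 and 3 are known for the clearance of drugs, steroids and bile acids in hepatocytes, and family 4 for the hydroxylation of fatty acids and eicosanoids. Their transcription in liver is known to depend on HNF4α and on nuclear receptors that sense drugs (CAR and PXR) or fatty acids (PPARα), and several family 2 genes differ between male and female mice.

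The mice were labelled C57BL/6 (C57BL/6J in the design text) and were 7 to 8 weeks old when bought, in 3 groups of 3. Control mice were labelled with water as their treatment and received 200 µL of sterile water by mouth daily. DSS mice had chronic colitis from 3 cycles of 1.8% dextran sulfate sodium in the drinking water, each of 1 week followed by 1 week of recovery, and the same daily water by mouth. Indirubin mice had DSS and 1 g/kg/day of indirubin, a bisindole pigment of indigo naturalis, in that volume. The deposited design text does not exempt Control mice from the DSS cycles, and that they had none is taken from their labels. The labels gave no sex and did not say whether mice shared cages, and a p-value therefore measured only the spread between these libraries.

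Each library held between 6514863 and 7944684 counts, of which 71.6% to 91.3% lay on mitochondrial genes and 569044 to 2132208 on nuclear genes. Levels are given as normalized CPM, in which TMM factors put the 9 libraries on one scale, and differences as log2 fold changes with their standard error (SE) from edgeR's quasi-likelihood test. Adjusted p-values were corrected over all genes tested. With 3 libraries against 3, an exact two-sided permutation test cannot give less than p = 0.10, and groups are called not overlapping where every library of one group lay above every library of the other. Hepatocyte markers such as Alb were abundant in every library, with summed levels of 7733 to 18620 normalized CPM. Indirubin-2 and Indirubin-3 stood apart. The summed level of 8 pancreatic acinar markers was 601 and 807 normalized CPM in them and 0 to 17.0 in the other 7 libraries, and the summed level of 7 neutrophil markers was 233 and 86.8 against 1.16 to 25.1. All 7 neutrophil markers had counts, but only 2 of them, S100a8 and S100a9, had enough to be tested in any comparison. The P450 counts and medians of the Indirubin comparisons are therefore also given without Indirubin-1 and without both Indirubin-2 and Indirubin-3. In bulk liver RNA, fewer hepatocytes and less P450 RNA per hepatocyte cannot be told apart.

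The genes sit in clusters of similar copies. In the coordinates of the deposited table (GRCm39), the 15 Cyp2c genes lay on chromosome 19 between 38995463 and 44017647, the 9 Cyp2d genes on chromosome 15 between 82254728 and 82678495, and the 7 Cyp3a genes on chromosome 5 between 137891194 and 146050097. The 4 Cyp2a genes lay on chromosome 7 between 26006594 and 26736800, the 5 Cyp4a genes on chromosome 4 between 115099281 and 115478799, and 8 of the 9 Cyp4f genes on chromosome 17 between 32671697 and 33166376. Cyp2e1 lay alone on chromosome 7, from 140343652 to 140354900. Copies can share reads. In GENCODE vM21 transcripts, 37 of the 72 genes found there shared no run of 100 bases with another of the 72. The largest shares of such runs held in common were 41.7% in Cyp2c40, 36.3% in Cyp2c69, 23.7% in Cyp2c67, 20.1% in Cyp4a32 and 19.8% in Cyp2c68. For Cyp2d10 the share was 12.3%, for Cyp2d9 6.13% and for Cyp3a11 0.312%. The read length and the treatment of reads that fit several genes were not given in the sources used here, so counts of the first 5 are the least certain.

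The windows before the start sites show what some of these copies have in common. RefSeq promoter windows (GRCm38.p6, another build than the deposited table) were found for 59 of the 73 genes, with 66 windows because 5 genes have several starts, and the 250 bases before the start were searched on both strands. The letters CAAAGTCCA, a recognition sequence of HNF4α, were in 8 of the 66 windows (12.1%) and in 0.384% of 32851 windows of all genes. Those 8 genes were 6 of the 13 Cyp2c genes with a window and 2 of the 7 Cyp3a genes. TATAAA was in 33.3% of the windows of these genes and in 12.4% of all windows, and TTGCNNAA, of the type C/EBP factors bind, in 27.3% and 9.56%. GCGTG, the core letters that the aryl hydrocarbon receptor binds, was in 16.7% and 28.2%, and TTCNNNGAA, of the type STAT factors bind, in 6.06% and 7.02%. A match is a run of letters and not a shown binding site, and windows of related copies are not independent.

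Windows of 5 genes are shown because the results below turn on them: the most abundant Cyp3a gene, a Cyp2c pair whose windows hold the HNF4α letters, and a Cyp2d pair that had opposite directions with DSS. Each runs from 5′ to 3′ on the strand of the gene and ends at the base before the start, with CAAAGTCCA and TATAAA (or its reverse complement TTTATA) in capitals.
Cyp3a11, chr5:145879855-145880104, minus strand: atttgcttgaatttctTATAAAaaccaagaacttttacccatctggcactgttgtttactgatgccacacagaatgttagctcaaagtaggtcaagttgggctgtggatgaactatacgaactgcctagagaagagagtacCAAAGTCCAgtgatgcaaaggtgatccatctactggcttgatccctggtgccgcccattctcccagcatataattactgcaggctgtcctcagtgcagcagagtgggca
Cyp2c68, chr19:39741102-39741351, minus strand: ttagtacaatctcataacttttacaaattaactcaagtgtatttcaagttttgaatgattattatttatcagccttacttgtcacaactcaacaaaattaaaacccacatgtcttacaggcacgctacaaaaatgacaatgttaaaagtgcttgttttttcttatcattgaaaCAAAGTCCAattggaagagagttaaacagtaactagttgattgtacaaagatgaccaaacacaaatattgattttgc
Cyp2c70, chr19:40187287-40187536, minus strand: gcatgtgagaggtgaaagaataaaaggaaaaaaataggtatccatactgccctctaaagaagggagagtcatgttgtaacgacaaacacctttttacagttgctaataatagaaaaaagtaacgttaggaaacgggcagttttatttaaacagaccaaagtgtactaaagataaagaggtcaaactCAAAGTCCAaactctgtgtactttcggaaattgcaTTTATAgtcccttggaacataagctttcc
Cyp2d9, chr15:82452127-82452376, plus strand: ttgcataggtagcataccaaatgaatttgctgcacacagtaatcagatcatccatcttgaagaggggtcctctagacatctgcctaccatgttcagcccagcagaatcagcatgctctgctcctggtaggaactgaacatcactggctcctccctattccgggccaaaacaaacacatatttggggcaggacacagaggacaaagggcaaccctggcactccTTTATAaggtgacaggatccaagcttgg
Cyp2d40, chr15:82764123-82764372, minus strand: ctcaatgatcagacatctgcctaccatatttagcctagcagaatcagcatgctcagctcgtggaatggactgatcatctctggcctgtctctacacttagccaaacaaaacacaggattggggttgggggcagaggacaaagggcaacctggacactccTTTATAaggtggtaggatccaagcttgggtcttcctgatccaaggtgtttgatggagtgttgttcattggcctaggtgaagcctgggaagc

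The HNF4α letters begin 109 bases before the start in Cyp3a11, 77 in Cyp2c68 and 64 in Cyp2c70. Cyp2d9 and Cyp2d40 shared an identical run of 19 bases, and TTTATA begins 28 bases before the annotated start of Cyp2d9 and 91 before that of Cyp2d40.

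Most P450 counts came from a few genes. Of the 73 genes, 15 had no count in any library, 13 had 1 to 10 counts in all 9 libraries together and 45 had more, and 21 had at least 10 counts in every library. Per kilobase of gene length, Cyp2e1 (ENSMUSG00000025479), which oxidizes ethanol and acetaminophen, had the highest mean level over the 9 libraries (110 normalized CPM per kb) and lay above the next gene in 9 of 9 libraries. Cyp3a11 (ENSMUSG00000056035), the main mouse counterpart of the human drug-metabolizing CYP3A4, followed at 39.0, and then Cyp2d10 at 31.4, Cyp2d26 at 28.3, Cyp2f2 at 21.5 and Cyp2d9 at 18.5. Below Cyp2e1 the order was not firm: each of the next 5 genes lay above its lower neighbour in only 5 or 6 of 9 libraries. The 5 most abundant genes together held 47.1% to 62.8% of the P450 counts of a library.

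Subfamilies differed widely in level. Summed over its genes, Cyp3a was at 304 ± 72.6 normalized CPM in Control, 275 ± 76.0 in DSS and 118 ± 116 in Indirubin (SD, n = 3), and Cyp2c was at 216 ± 60.0, 196 ± 59.7 and 113 ± 76.4. Cyp2d was at 252 ± 49.2, 186 ± 51.5 and 93.5 ± 48.8, and Cyp2a at 68.0 ± 16.2, 40.6 ± 3.63 and 22.8 ± 12.2. Both were lower in every DSS library than the Control mean. Of the fatty acid hydroxylases, Cyp4f was at 31.1 ± 8.60, 27.7 ± 2.82 and 13.3 ± 8.77. Cyp4a was at 8.13, 18.9 and 7.03 normalized CPM in Control, 39.2, 9.53 and 25.1 in DSS and 13.0, 3.59 and 7.40 in Indirubin, so the groups overlapped. Cyp2b was near the detection limit, at 0 to 2.85 normalized CPM in each library. Its classical CAR target Cyp2b10 had 2, 0 and 0 counts in Control, 13, 0 and 7 in DSS and 0, 19 and 5 in Indirubin, and Cyp2b9 had counts in 3 of 9 libraries. In 7 subfamilies the Indirubin libraries were not alike: Indirubin-1 lay within the DSS range or, for Cyp4f, just below it, while Indirubin-3 lay below all of them in each subfamily and Indirubin-2 in each but Cyp2e.

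**Figure D1:**
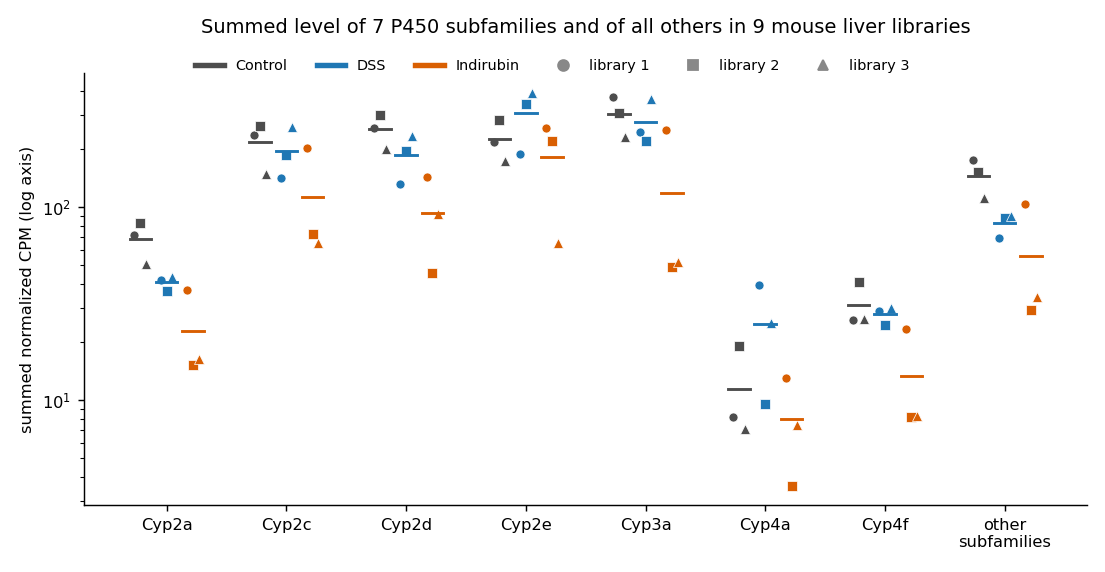
Summed level of 7 subfamilies and of the 18 genes of all other subfamilies in each library, as normalized CPM on a log axis (bar: group mean, n = 3). Cyp3a is at 252 in Indirubin-1 and at 48.9 and 52.0 in Indirubin-2 and Indirubin-3, against 220 to 362 in DSS. Cyp2b is not drawn because it had no count in 4 libraries.

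DSS mice and Control mice were compared to see how P450 expression stood in chronic colitis. No P450 gene passed an adjusted p of 0.05 in either direction. Cyp2f2, Cyp2d9 and Cyp4v3 were the clearest among the genes that were lower, and Cyp2d40 and Cyp3a13 among those that were higher. Over the 33 genes that passed the filter on low counts, 21 were lower and 12 higher, and 6 were lower and 2 higher at an unadjusted p under 0.05 (18.2% of the 33 lower). Of all 7482 genes tested, 4.05% were lower and 3.48% higher at that threshold, 49.4% had a log2 fold change under 0, and 0.495% were lower and 0.214% higher at an adjusted p under 0.05. The median log2 fold change was -0.15 for the 33 and 0.01 for all genes. With DESeq2's Wald test 3 P450 genes were lower (Cyp2f2, Cyp2d9 and Cyp4v3) and 1 was higher (Cyp2d40) at an adjusted p under 0.05, where 1.18% of all genes were lower and 0.735% higher. With library size alone, which moved the median of all genes to 0.70 and that of the 33 to 0.50, 1 was lower and 4 were higher at an unadjusted p under 0.05, where 0.949% of all genes were lower and 11.3% higher.

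Cyp2f2 (ENSMUSG00000052974), which bioactivates naphthalene, was at 91.8, 75.7 and 62.8 normalized CPM in Control and 29.0, 32.5 and 29.6 in DSS. Every DSS library lay below every Control library. The log2 fold change was -1.30 (SE 0.30, adjusted p = 0.0798). Cyp2d9 (ENSMUSG00000068086), a steroid hydroxylase known to be higher in male mice, was at 84.6, 105 and 82.4 in Control and 24.1, 40.6 and 39.1 in DSS. The groups did not overlap, and the log2 fold change was -1.35 (SE 0.31, adjusted p = 0.0798). Cyp2d10 and Cyp2d26 had overlapping groups, at 42.7 to 91.8 and 49.0 to 69.4 normalized CPM in Control and 36.6 to 81.8 and 43.4 to 80.5 in DSS.

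Cyp2d40, whose window shares a run with that of Cyp2d9, had the opposite direction. It was at 4.07, 2.63 and 4.61 normalized CPM in Control and 6.84, 16.2 and 16.7 in DSS, without overlap, and the log2 fold change was 1.84 (SE 0.52, adjusted p = 0.206). Cyp2d13 had 19, 45 and 28 counts in Control and 0, 2 and 21 in DSS, with a log2 fold change of -2.93 (SE 1.06, adjusted p = 0.436). It passed the filter through its Control counts.

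Cyp4v3, the mouse counterpart of the fatty acid hydroxylase CYP4V2, was at 26.1, 25.4 and 25 normalized CPM in Control and 10.9, 5.12 and 13.4 in DSS. The Control libraries were close together and all above the DSS libraries, with a log2 fold change of -1.35 (SE 0.39, adjusted p = 0.234). Cyp2u1, which hydroxylates long-chain fatty acids, had 42, 19 and 15 counts in Control and 6, 5 and 3 in DSS, with a log2 fold change of -2.97 (SE 0.96, adjusted p = 0.341), and passed the filter through its Control counts. Cyp2a12 was lower without overlap in DSS as well, and so was Cyp2c23. In all 7 of the 33 were lower and 2 higher without overlap between the groups, where 8.54% and 7.11% of all genes tested were.

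Cyp3a13, the Cyp3a gene known from intestine, was at 4.45, 6.31 and 5.09 normalized CPM in Control and 4.84, 9.17 and 23.9 in DSS. DSS-3 was the high library and the groups overlapped, and the log2 fold change was 1.27 (SE 0.56, adjusted p = 0.629). Cyp4a14, a fatty acid hydroxylase and PPARα target, had 17, 47 and 1 counts in Control and 223, 0 and 217 in DSS. DSS-2 had none, and the log2 fold change of 2.00 had an SE of 1.10 (adjusted p = 0.772). Cyp2r1, a vitamin D hydroxylase, had 5, 3 and 3 counts in Control and 14, 18 and 31 in DSS, the second of the genes that were higher without overlap (log2 fold change 1.79, SE 1.24, adjusted p = 0.902). It passed the filter through its DSS counts. The log2 fold change of Cyp2e1 was 0.50 (SE 0.33, adjusted p = 0.896).

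Cyp4a32 was the one gene at or under 3 counts in every library of one group and above it in every library of another. It had 0, 1 and 0 counts in Control and 6, 15 and 6 in DSS. The DSS mean was 2.13 times the mean level that 3 counts would give in the Control libraries, counting error only. DSS-2 was the high library, at 2.65 normalized CPM against 0.708 in DSS-1 and 0.546 in DSS-3, so the ratio does not hold for each DSS library. A share of its transcript is identical to Cyp4a10 and Cyp4a31.

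**Figure D2:**
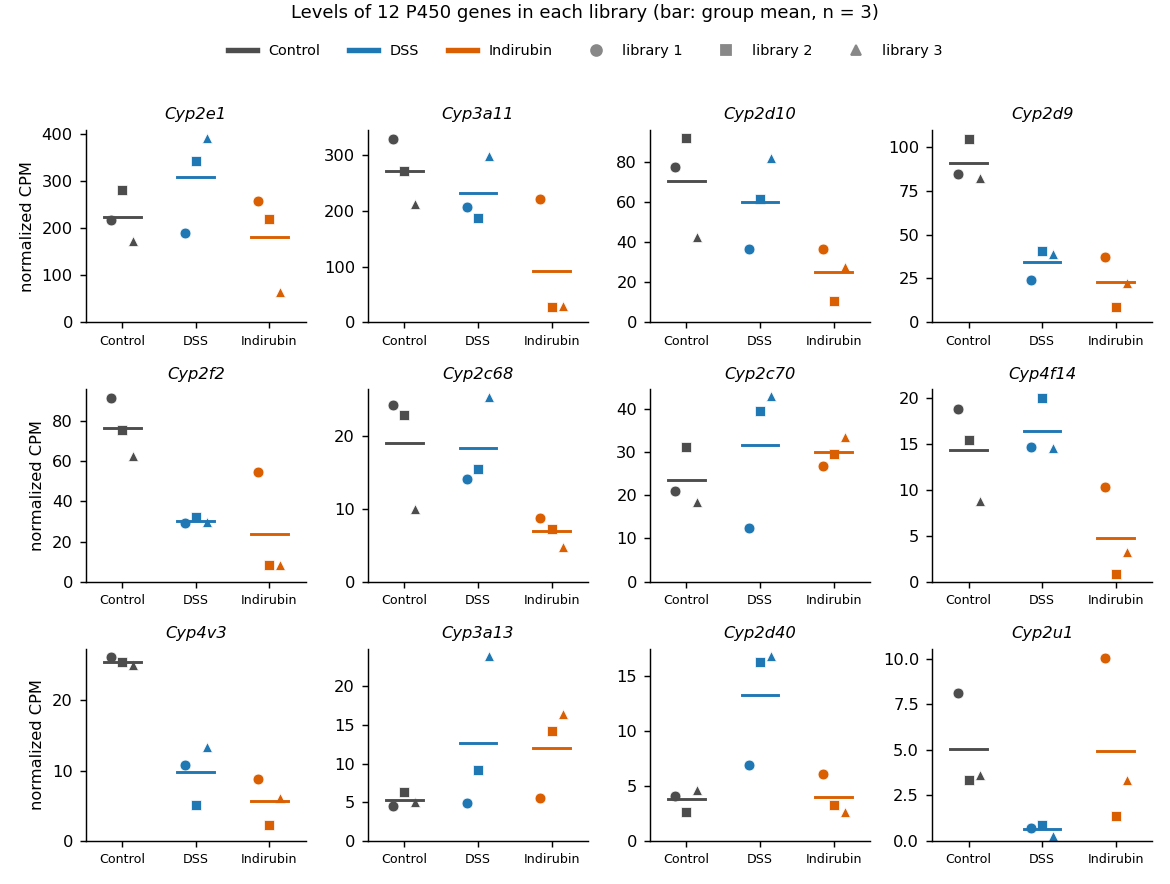
Normalized CPM of 12 P450 genes in each library (bar: group mean, n = 3; each axis starts at 0). Cyp2f2, Cyp2d9 and Cyp4v3 are lower in all DSS libraries than in all Control libraries, and Cyp3a11 is near 30 in Indirubin-2 and Indirubin-3 but at 222 in Indirubin-1.

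Indirubin and DSS mice were compared to see what indirubin added to colitis. Nearly all P450 genes tested were lower in the Indirubin mean: 31 of 33 had a log2 fold change under 0, against 43.2% of the 9117 genes tested, and their median was -0.91 against 0.15 for all genes. The exceptions were Cyp2u1 and Cyp2j6. No P450 gene passed an adjusted p of 0.05 (the smallest was 0.446), nor did any of the 9117 genes. The DESeq2 Wald test called no P450 gene at that threshold, where it called 0.296% of all genes as lower and 0.581% as higher. At an unadjusted p under 0.05, 7 were lower and 1 was higher, where 3.22% of all genes were lower and 4.45% higher. With library size alone 4 were lower and 1 was higher, where 1.13% and 4.46% of all genes were, 29 of 33 had a log2 fold change under 0, as did 30.3% of all genes, and the medians were -0.79 for the 33 and 0.43 for all genes.

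This difference was carried by 2 of the 3 Indirubin libraries. Of the 33 genes, 23 lay below all DSS libraries in Indirubin-2 and 24 in Indirubin-3, but 8 did in Indirubin-1, where 18 lay within the DSS range and 7 above it. Of all 9117 genes tested, 18.4% lay below all DSS libraries in Indirubin-2, 20.7% in Indirubin-3 and 21.6% in Indirubin-1. In Indirubin-1, 49.1% of all genes lay within the DSS range and 29.2% above it. The summed P450 level was 1029 normalized CPM in Indirubin-1, 447 in Indirubin-2 and 341 in Indirubin-3, with 887, 1100 and 1436 in DSS and 1365, 1445 and 947 in Control. Without Indirubin-1, 32 of 39 tested genes were lower, with a median log2 fold change of -1.50, and 7 passed an adjusted p of 0.05 (Cyp3a11, Cyp2c29, Cyp2f2, Cyp3a25, Cyp2c23, Cyp4f14 and Cyp4a10), where 0.703% of all genes were lower at that threshold. Of these 7, Cyp2c23 and Cyp4a10 passed the filter through their DSS counts alone. Without both Indirubin-2 and Indirubin-3, 27 of 42 were lower, the median was -0.21, and none had an unadjusted p under 0.05 in the lower direction, where 1.92% of all genes did. That fit assumes that the lone library varied like the DSS libraries.

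Other values moved with this split. Indirubin-2 and Indirubin-3 were the libraries with acinar and neutrophil transcripts given above. The summed level of 8 Kupffer cell and macrophage markers was 187 and 189 normalized CPM in them against 80.5 to 139.9 in the other 7 libraries. Enterocyte markers, of which 6 of 8 had counts, were at 27.1 and 172 in Indirubin-2 and Indirubin-3 against 3.84 to 13.6 in the other 7. Only 2 of the 8 were tested in Indirubin against DSS, and they had opposite directions. The log2 fold change was 3.73 for Apoa4 (SE 1.21, adjusted p = 0.473) and -1.06 for Fabp2 (SE 0.63, adjusted p = 0.793). The 6 stellate cell markers were at 143.5 and 156 in Indirubin-2 and Indirubin-3 against 72.8 in Indirubin-1, 51.2 to 80.2 in DSS and 79.3 to 145 in Control, so they overlapped with Control. The nuclear totals of Indirubin-2 and Indirubin-3 were 1910420 and 1771035 counts against 701804 in Indirubin-1, 807612 to 2132208 in DSS and 569044 to 989212 in Control, and DSS-3, with the highest nuclear total, had a summed P450 level of 1436 normalized CPM. The summed levels of 24 acute-phase genes in Indirubin-2 and Indirubin-3 were 18050 and 27590 normalized CPM against 3135 in Indirubin-1, 7048 to 31710 in DSS and 2775 to 4592 in Control. The summed level of 9 hepatocyte markers was 10320, 7733 and 9668 in Indirubin-1, Indirubin-2 and Indirubin-3, of which the second lay below the DSS range of 9647 to 18620. Per 100 units of hepatocyte marker level, P450 genes were at 9.98 in Indirubin-1, 5.78 in Indirubin-2 and 3.52 in Indirubin-3, against 7.71 to 9.85 in DSS and 7.82 to 8.49 in Control. The part of RNA from these other cell types in the P450 result was not tested.

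**Figure D3:**
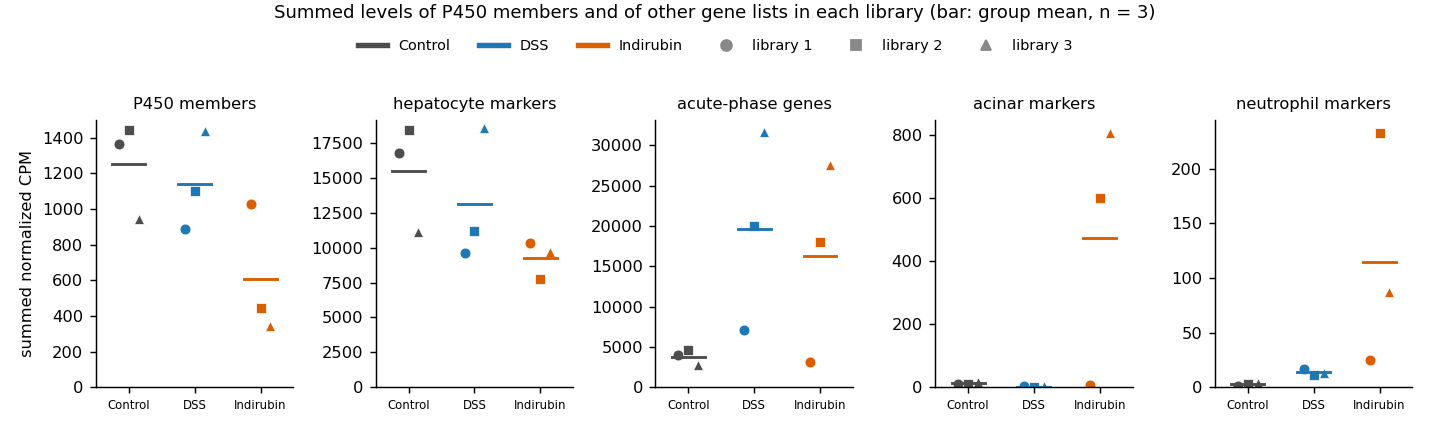
Summed normalized CPM in each library of the 73 P450 genes, of hepatocyte markers, acute-phase genes, pancreatic acinar markers and neutrophil markers (bar: group mean, n = 3; each axis starts at 0). Indirubin-2 and Indirubin-3 are low for P450 genes at 447 and 341 and high for acinar markers at 601 and 807.

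Among the drug- and steroid-metabolizing genes, Cyp3a11 was at 208, 187 and 299 normalized CPM in DSS and 222, 26.8 and 30.1 in Indirubin. Indirubin-1 lay inside the DSS range and the other two far below it. The log2 fold change was -1.32 (SE 0.71, adjusted p = 0.754), and -3.13 without Indirubin-1 (adjusted p = 0.00259). Cyp3a25 had the same pattern, at 26.5, 21.7 and 35.8 in DSS and 22.9, 7.59 and 5.50 in Indirubin, and so had Cyp2c29, at 44.5, 49.4 and 82.5 and at 54.1, 8.81 and 13.8. Their log2 fold changes were -1.24 (SE 0.53, adjusted p = 0.627) and -1.21 (SE 0.61, adjusted p = 0.709). Cyp2c23, an arachidonic acid epoxygenase, had 175 counts in Indirubin-1, 17 in Indirubin-2 and 0 in Indirubin-3, and 156, 91 and 201 in DSS. Cyp2a5, known for coumarin hydroxylation, had 19, 8 and 124 counts in DSS and 51, 18 and 9 in Indirubin, and its log2 fold change of -0.42 (SE 0.99) changed sign with single libraries left out. Cyp2d26 was at 43.4, 56.1 and 80.5 normalized CPM in DSS and 48.5, 14.4 and 29.1 in Indirubin (log2 fold change -0.97, SE 0.48, adjusted p = 0.695).

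Fewer genes were low in all 3 Indirubin libraries. Cyp2c68 was at 14.2, 15.5 and 25.4 normalized CPM in DSS and 8.78, 7.26 and 4.73 in Indirubin. Every Indirubin library lay below every DSS library, with a log2 fold change of -1.41 (SE 0.44, adjusted p = 0.456). Cyp2d40, higher in DSS than in Control, was at 6.04, 3.26 and 2.58 in Indirubin against 6.84, 16.2 and 16.7 in DSS, with a log2 fold change of -1.76 (SE 0.54, adjusted p = 0.446). Cyp2d10 was at 36.6, 61.6 and 81.8 in DSS and 36.4, 10.6 and 27.7 in Indirubin, a gap that between Indirubin-1 and DSS-1 was narrow (log2 fold change -1.27, SE 0.50, adjusted p = 0.567). Cyp2a12, which acts on bile acids, was at 38.9, 35.1 and 32.1 in DSS and 27.4, 13.7 and 15.5 in Indirubin (log2 fold change -0.91, SE 0.40, adjusted p = 0.628). In all, 8 of the 33 were lower and 1 higher without overlap, where 5.93% and 10.5% of all genes tested were. The 8 include Cyp3a59, with 40, 13 and 35 counts in DSS and 9, 0 and 0 in Indirubin, which passed the filter through its DSS counts. Cyp3a59 is also among the 31 genes with a log2 fold change under 0.

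Cyp2c70, which makes the muricholic acids of rodent bile, has a window with the HNF4α letters, as Cyp2c68 does. It was at 12.4, 39.5 and 43.0 normalized CPM in DSS and 26.9, 29.7 and 33.5 in Indirubin. All 3 Indirubin libraries lay inside the DSS range, and the log2 fold change of -0.07 (SE 0.47, adjusted p = 0.990) turned to 0.23 with library size alone. Cyp3a13 behaved alike, at 5.49, 14.2 and 16.4 in Indirubin against 4.84, 9.17 and 23.9 in DSS. Cyp2e1 was at 189, 342 and 392 in DSS and 257, 221 and 65.4 in Indirubin, where only Indirubin-3 lay below the DSS range, with a log2 fold change of -0.76 (SE 0.54, adjusted p = 0.867). It took up 49.4% of all P450 counts in Indirubin-2 and 16.0% to 31.1% in the other 8 libraries.

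Of the fatty acid and eicosanoid hydroxylases, Cyp4f14, known to inactivate leukotriene B4, was at 14.6, 19.9 and 14.5 normalized CPM in DSS and 10.2, 0.816 and 3.18 in Indirubin. The groups did not overlap, and the log2 fold change was -1.83 (SE 0.70, adjusted p = 0.546). Cyp2j5, an arachidonic acid epoxygenase, was at 21.0, 34.2 and 37.4 in DSS and 19.0, 10.5 and 11.3 in Indirubin, also without overlap (log2 fold change -1.19, SE 0.42, adjusted p = 0.502). Cyp4a10 had 97, 39 and 48 counts in DSS and 47, 0 and 2 in Indirubin, and Cyp4f15 had 33, 0 and 68 and then 37, 0 and 4, so both were undetected or nearly so in Indirubin-2 and Indirubin-3 at these depths. Their log2 fold changes were -1.45 (SE 1.25) and -0.58 (SE 1.53). Cyp4a14 was at 4.02, 3.18 and 7.22 normalized CPM in Indirubin, each between the low and the high DSS libraries.

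Cyp2u1 was the single gene higher without overlap. It had 6, 5 and 3 counts in DSS and 55, 17 and 39 in Indirubin, with a log2 fold change of 2.99 (SE 1.02, adjusted p = 0.496), and passed the filter on low counts through its Indirubin counts. Its Indirubin levels of 10.1, 1.39 and 3.35 normalized CPM spanned those of Control, at 8.13, 3.33 and 3.64. Cyp2j6 was at 0.944, 3.35 and 3.55 normalized CPM in DSS and 4.21, 1.47 and 2.92 in Indirubin, with a log2 fold change of 0.12 (SE 0.86) that changed sign without Indirubin-1.

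Indirubin and Control mice were compared as the combined effect of DSS and indirubin, with the same Control libraries as before and the same Indirubin libraries as above, so the comparisons are not independent. Of 33 genes tested, 27 were lower and 6 higher, where 44.5% of the 8059 genes tested had a log2 fold change under 0. The median was -1.25 against 0.13 for all genes. At an unadjusted p under 0.05, 13 were lower and 1 higher, where 6.38% and 7.45% of all genes were. None passed an adjusted p of 0.05, where 0.174% of all genes were lower and 0.062% higher, although the DESeq2 Wald test called 4 as lower (Cyp4v3, Cyp2d9, Cyp2a12 and Cyp2d13), where it called 2.11% of all genes. With library size alone, 2 were lower and 3 higher at an unadjusted p under 0.05, where 1.33% and 26.2% of all genes were, with medians of -0.32 for the 33 and 1.11 for all genes. In 9 of the 33 the Indirubin libraries all lay below the Control libraries, against 9.27% of all genes, and in none all above, against 12.3%.

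Cyp4v3 had the lowest p-value. It was at 8.78, 2.20 and 6.11 normalized CPM in Indirubin against 25 to 26.1 in Control, with a log2 fold change of -2.17 (SE 0.48, adjusted p = 0.0842). Cyp2a12 stood at -1.59 (SE 0.39, adjusted p = 0.104), with 45.3 to 66.0 normalized CPM in Control. Cyp2d9 was at 37.1, 8.48 and 22.5 in Indirubin against 82.4 to 105 in Control, with a log2 fold change of -1.98 (SE 0.48, adjusted p = 0.105). For Cyp4v3 and Cyp2d9, Indirubin-1 lay within the DSS range. Cyp2d13 stood at -2.43 (SE 0.69, adjusted p = 0.147), with 9, 13 and 8 counts in Indirubin, and here too passed the filter through its Control counts. Cyp2c68 stood at -1.44 (SE 0.44, adjusted p = 0.174). Cyp2f2 did not overlap between Control and Indirubin either, but it was at 54.9 normalized CPM in Indirubin-1 and at 8.24 and 8.26 in the other two.

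The genes in the other direction were few. Cyp3a13 was the single one at an unadjusted p under 0.05 (log2 fold change 1.23, SE 0.49, adjusted p = 0.281), at 5.49, 14.2 and 16.4 normalized CPM in Indirubin against 4.45 to 6.31 in Control. Cyp2c38 had 6, 1 and 0 counts in Control and 18, 30 and 13 in Indirubin (log2 fold change 2.29, SE 1.27, adjusted p = 0.463), and passed the filter through its Indirubin counts. Cyp2r1, Cyp2c70 and Cyp4a14 stood at 0.93, 0.38 and 0.32, each with an SE above 0.35 and overlapping groups.

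Without Indirubin-1, 17 P450 genes were lower at an adjusted p under 0.05, where 3.29% of all genes were, and the median was -1.95. Of the 17, 6 passed the filter through their Control counts alone, Cyp4a10, Cyp4f15, Cyp2a5 and Cyp2c23 among them. Among the rest of the 17, which did not need their Control counts to pass, were Cyp3a11, Cyp2f2 and Cyp2c29 at -3.36, -3.33 and -2.23. Without both Indirubin-2 and Indirubin-3 none of 36 was called, where 0.201% of all genes were lower, and the median was -0.23.

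**Figure D4:**
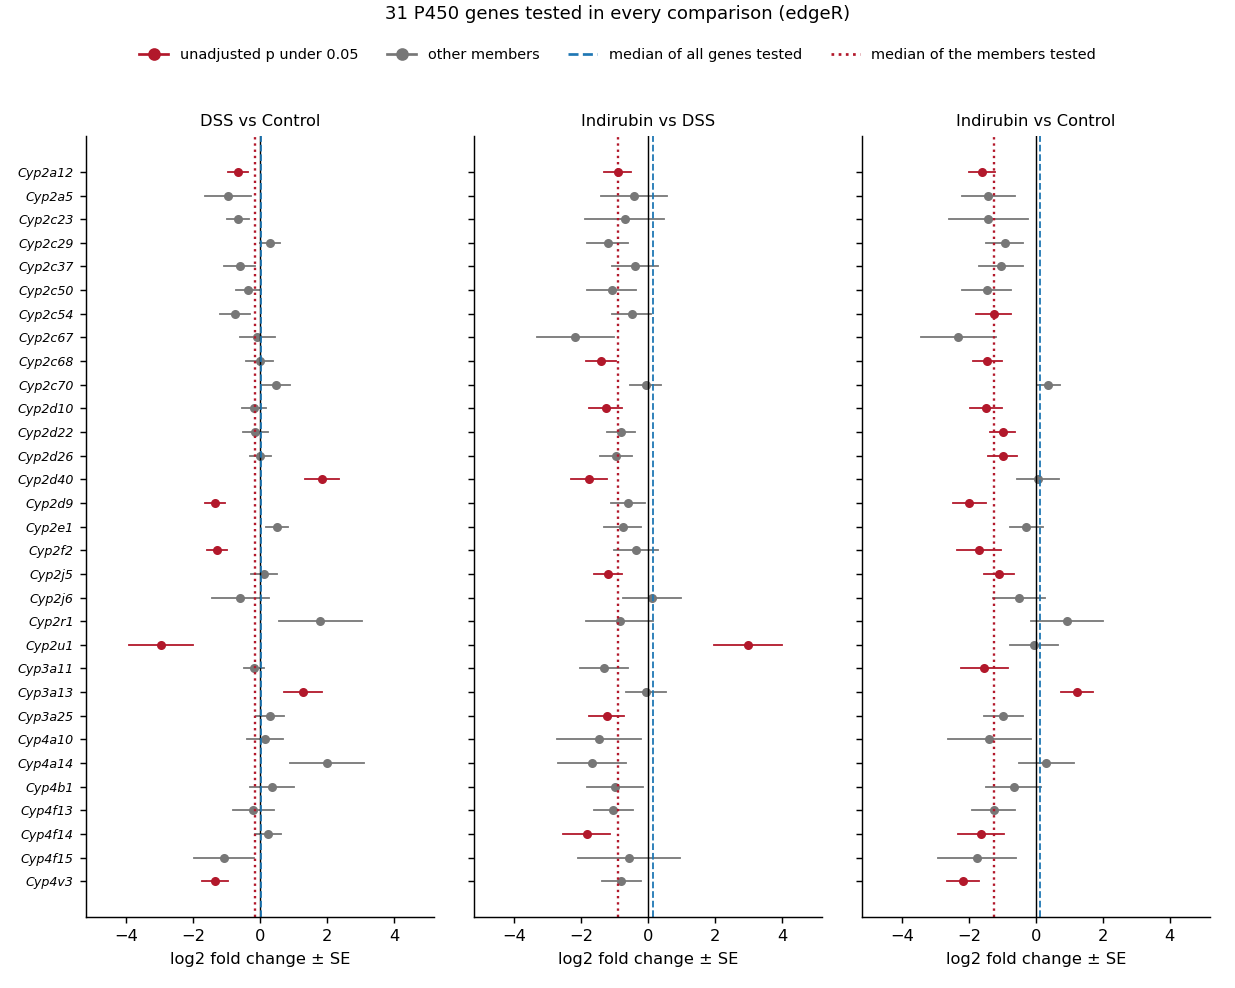
Log2 fold change with its SE of the 31 P450 genes tested in all 3 comparisons, ordered by name, with the median of all genes tested (dashed) and of the P450 genes tested (dotted). In the Indirubin and DSS comparison the dotted line is at -0.91 and the dashed line at 0.15, and Cyp2u1 stands alone at 2.99.

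Genes that serve or control these enzymes were read from lists of known genes. Of 8 genes of electron transfer to P450 enzymes, which include Fdxr of the mitochondrial chain, all were tested and none had an unadjusted p under 0.05 in DSS against Control or in Indirubin against DSS. P450 oxidoreductase (Por) had log2 fold changes of 0.59 (SE 0.56) and 1.16 (SE 0.59) there, and 1.73 (SE 0.71, adjusted p = 0.301) in Indirubin against Control. It was at 8.41, 17.9 and 54.0 normalized CPM in the Indirubin libraries. These lists were not tested without single libraries. In Indirubin against Control 3 of the 8 were lower and 1 higher at an unadjusted p under 0.05. The 3 were Fdxr at -3.75 (SE 0.97, adjusted p = 0.120), which had 4, 10 and 0 counts in Indirubin and passed the filter through its Control counts, Pgrmc1 at -1.40 (SE 0.43, adjusted p = 0.174) and Pgrmc2 at -1.06 (SE 0.46, adjusted p = 0.318), all without overlap. Of the 24 regulators, 18 were tested in DSS against Control, with 1 higher and none lower at an unadjusted p under 0.05. This was Nr0b2, the nuclear receptor SHP that represses bile acid synthesis (log2 fold change 1.82, SE 0.69, adjusted p = 0.477). In Indirubin against DSS, 20 were tested and 1 was higher and 1 lower: Cebpb at 1.45 (SE 0.62, adjusted p = 0.618) and Nr0b2 at -1.46 (SE 0.63, adjusted p = 0.624), both without overlap.

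Targets of CAR and PXR outside the 3 families had a median log2 fold change of -0.93 in Indirubin against DSS, with 12 of 16 tested lower and 3 lower and 1 higher at an unadjusted p under 0.05. The carboxylesterase Ces2a stood at -2.19 (SE 0.74, adjusted p = 0.496) and the glucuronosyltransferase Ugt2b34 at -1.90 (SE 0.57, adjusted p = 0.436), while the sulfotransferase Sult1d1 stood at 1.94 (SE 0.59, adjusted p = 0.436). The Indirubin libraries were again not alike: Ces2a was at 52.9, 6.36 and 6.19 normalized CPM, Ugt2b34 at 39.5, 9.22 and 8.60 and Sult1d1 at 14.6, 56.4 and 45.1. In DSS against Control the same list was split, with 9 of 16 higher and a median of 0.07. Of 22 tested PPARα targets outside the families, 12 were lower in Indirubin against DSS with a median of -0.05, and none had an unadjusted p under 0.05. In DSS against Control 14 of 19 were lower with a median of -0.34, 2 at an unadjusted p under 0.05: Angptl4 at -1.69 (SE 0.39, adjusted p = 0.0798) and Acaa1b at -0.90 (SE 0.34, adjusted p = 0.488). In Indirubin against Control 13 of 20 were lower with a median of -0.55, and 1 was lower and 1 higher at an unadjusted p under 0.05. The counts of the lists can be read against the shares of all genes given for each comparison.

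Cyp2d9, Cyp2f2 and Cyp2u1 also stand in a list of genes known to be higher in livers of male mice. In DSS against Control, all 17 tested genes of that list were lower, 14 at an unadjusted p under 0.05 and 5 at an adjusted p under 0.05, with a median of -1.77. Cyp2d9, Cyp2f2 and Cyp2u1, already given above as lower, are counted in the 17, and Cyp2u1 passed the filter through its Control counts. The smallest p-values were those of genes outside the P450 families, such as Selenbp2 at -5.32 (SE 0.60, adjusted p = 0.00142). In Indirubin against Control, 16 of 16 were lower and 14 had an unadjusted p under 0.05. In Indirubin against DSS, 11 of 12 were lower, none at an unadjusted p under 0.05, and the one higher was Cyp2u1. Of 22 genes known to be higher in females, 1 or 2 were tested in each comparison. Both tested in Indirubin against DSS had an unadjusted p under 0.05: Cyp17a1 at 3.06 (SE 1.17, adjusted p = 0.543) and Fmo2 at 2.25 (SE 1.02, adjusted p = 0.642). Cyp17a1 was at 0, 14.8 and 20.9 normalized CPM in Indirubin, and Fmo2 at 2.01, 17.0 and 33.3, so Indirubin-1 was the low library for both. Fmo2 stood at -0.98 in DSS against Control and 1.29 in Indirubin against Control, neither at an unadjusted p under 0.05. Pericentral genes outside the families, from the zone of the lobule where most P450 enzymes are made, were 8 higher and 6 lower in DSS against Control, and 3 higher and 11 lower in Indirubin against DSS. One of the 3 was Cyp1a2, an aryl hydrocarbon receptor target of family 1, which stood at 1.63 (SE 0.49, adjusted p = 0.436) without overlap. It was at 9.44, 20.8 and 35.1 normalized CPM in DSS and 86.2, 51.1 and 65.6 in Indirubin. Periportal genes were 3 higher and 12 lower, and 7 higher and 10 lower, in the same comparisons.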

How the data were processed

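The authors used the RNeasy Plus Micro Kit for the liver RNA, put 400 ng into each library and read the libraries with DNBSEQ sequencing. The submitters' processing notes name the build GRCm39, and the aligner, the counting program and its treatment of strand were not given in the sources used here. The authors deposited whole-number counts per gene without normalization, FPKM values and their own fold changes and p-values, which were not used. The FPKM values deposited by the authors served as a check: in every library, at genes with at least 50 counts, they equalled the count divided by the gene length and 1 library size within 1%. That size, 4192007 to 13153689, was not the total count.

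The counts entered edgeR 4.0.16 (R 4.3.3; TMM, filterByExpr with a minimum count of 10 and total of 15, glmQLFit and glmQLFTest, Benjamini-Hochberg adjustment over all genes tested), with the 6 libraries of a comparison. The SE is the log2 fold change divided by the square root of F. Levels use TMM factors over 9 libraries. Limits at 3 counts cover counting error only. DESeq2 1.42.0 was an alternative. The genes, lists, markers and tests were chosen with earlier results of these data known. The genes given in full were the 2 most abundant per length in each of the 8 subfamilies listed first, the 5 with the smallest p in each direction and comparison, those at an adjusted p under 0.05 and those at most 3 counts in one whole group and above it in another. Cyp2c23 and the genes in the closing observations were chosen after their values were seen. Gene lists gave up to 3 genes each way by p, and Ces6, G6pc1, Slp and Tf of the lists had no match by symbol. Same-numbered samples did not deviate together (correlation -0.0265 to 0.0288), so groups were unpaired. No libraries were identical. Sequences are from RefSeq, shared runs from GENCODE vM21. Figures were drawn with matplotlib 3.10.9.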

Additional observations from a re-analysis of the deposited data

How the results depend on the processing

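P450 genes tested were counted again under each alternative, and rest on 569044 to 2132208 nuclear counts per library, at which most low genes could not be tested. For DSS against Control, library size alone left 4 genes with unadjusted p under 0.05 on the higher side and 1 on the lower, and a median log2 fold change of 0.50. The adjusted calls were 1 higher and 3 lower with the DESeq2 Wald test, 1 higher and 1 lower without a filter (0.233% and 0.444% of all genes), and 2 lower with a minimum of 10 counts per library (1.65%). By unadjusted p, leaving out one library gave 1 to 4 higher genes and 4 to 7 lower ones (2.02% to 3.27% and 2.41% to 5.05% of all genes), and medians of -0.37 to 0.06, above 0 without Control-2 alone. For Indirubin against DSS, the lower genes at an unadjusted p under 0.05 were 4 with library size alone (1.13% of all genes), 16 without a filter (2.26%), 12 with all 9 libraries in one fit (3.74%), and 0 without both Indirubin-2 and Indirubin-3 (chosen after seeing the data; median -0.21). That minimum of 10 left 0 higher (6.09% of all genes). Leaving out one library gave 0 to 7 lower at an adjusted p under 0.05, 2 to 20 lower and 0 to 1 higher at an unadjusted p under 0.05. The lower count was 2 without Indirubin-2, 3 without Indirubin-3 or DSS-3 and 20 without Indirubin-1 (over these fits 1.48% to 5.35% of all genes were lower and 2.96% to 8.29% higher).

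For Indirubin against Control, library size alone left 3 genes with unadjusted p under 0.05 on the higher side and 2 on the lower, and a median of -0.32. The adjusted calls were 4 lower with the DESeq2 Wald test, 6 without a filter (0.821% of all genes) and 1 with the minimum of 10 counts (1.3%). Without a filter 24 were lower at an unadjusted p under 0.05 (3.00%), and all 9 libraries in one fit left 0 higher (5.66%). Without both Indirubin-2 and Indirubin-3, 3 genes with unadjusted p under 0.05 were on the lower side and 0 on the higher (5.11% and 2.72% of all genes), with a median of -0.23. Leaving out one library gave 0 to 17 lower at an adjusted p under 0.05, 6 to 23 lower and 0 to 1 higher at an unadjusted p under 0.05. The lower count was 7 without Control-1, 6 without Control-2, Indirubin-2 or Indirubin-3, and 23 without Indirubin-1 (over these fits 3.35% to 8.8% of all genes were lower and 5.06% to 9.54% higher).

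With the replicate number as a block and an unadjusted p under 0.05, 1 gene was higher and 5 lower in DSS against Control (2.39% and 3.85% of all genes), 1 higher and 15 lower in Indirubin against DSS (3.90% and 3.58%), and 1 higher and 22 lower in Indirubin against Control (6.03% and 6.79%). The numbers did not pair the samples.

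Some single genes changed direction. In Indirubin against DSS, Cyp2c70 stood at 0.23 with library size alone, 0.031 with a minimum of 10 counts, 0.10 with the replicate block and -0.57 to 0.21 with one library left out. Cyp2j6 stood at -0.0093 without a filter and -0.38 to 0.44 with one library left out. Cyp2a5 ranged from -2.25 to 1.04 and Cyp4f15 from -4.30 to 0.22 with one library left out, and they stood at 0.88 and 0.98, and Cyp4a10 at 0.19, without both Indirubin-2 and Indirubin-3. In Indirubin against Control, Cyp4a14 ranged from -0.26 to 1.40 with one library left out. The cause of these changes was not tested, other than that leaving out libraries leaves fewer samples.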

Other observations

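The subfamily Cyp4a also holds genes whose names end in a letter and which are therefore outside the 73. Cyp4a12a, a fatty acid hydroxylase known to be higher in male mice, had 73, 62 and 65 counts in Control, 50, 0 and 14 in DSS and 12, 0 and 9 in Indirubin. Its groups did not overlap between Control and DSS (log2 fold change -2.42, SE 0.86, adjusted p = 0.422 from edgeR) or between Control and Indirubin (log2 fold change -3.93, SE 0.88, adjusted p = 0.0877). Cyp4a12b had 14, 20 and 14 counts in Control and none in the 6 libraries of the other groups. Cyp4a12a and Cyp4a12b are close copies, so reads may be split between them. Of the P450 genes of the 73 with few counts, 9 had counts in a single library. Cyp2t4 (10 counts), Cyp2j11 (6), Cyp2c66 (5) and Cyp3a57 (4) had theirs in Indirubin-2, Cyp2s1 (7) and Cyp2d11 (5) in Indirubin-3, Cyp4f39 (7) in Indirubin-1, Cyp2a4 (6) in DSS-1 and Cyp2d12 (7) in DSS-3. Indirubin-2, Indirubin-3 and DSS-3 were the libraries with the most nuclear counts. All of these genes were picked after their values were seen.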
